A study of Mus musculus with 8 samples.

Results

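Converted hair cells (cHCs) are described here as 73 single-cell barcodes from mouse organs of Corti in which Atoh1 had been induced in supporting cells (SCs). They were chosen by their own transcript counts: at least 5 unique molecular identifiers (UMIs, counted transcript molecules) of Atoh1, at least 2 of Pou4f3 and at most 2 of Ocm, in barcodes with at least 500 genes and under 25% mitochondrial UMIs. The 73 came from 6023 barcodes that passed the gene and mitochondrial limits in all 8 libraries, 3179 of them in the 5 induced libraries. Every animal carried Fgfr3iCre+, Atoh1-HA+, Chrna9-GFP+ and Rosa26-CAG-loxP-stop-loxP-tdTomato+. In the induced groups, Coch + Tmx P26 (3 libraries) and Coch + Tmx P33 (2 libraries), tamoxifen had been injected at P12-13, whereas Coch P12 (2 libraries) and Coch P33 (1 library) came from animals that received none. By the study's methods the tamoxifen-dependent Fgfr3 driver releases Atoh1-HA from a CAG promoter in Deiters' cells (DCs) and pillar cells (PCs), so the model concerns these SC types and a transgene that stays on. The counts do not separate transgenic from endogenous Atoh1, and no reporter transcript was used here.

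HCs turn sound-driven deflection of an actin-filled hair bundle into current through a mechanotransduction complex at the tips of stereocilia. Outer HCs (OHCs) amplify sound with the motor protein prestin (Slc26a5) and buffer calcium with oncomodulin (Ocm), and inner HCs (IHCs) release glutamate loaded by Slc17a8 at ribbon synapses. SCs hold the HCs in place, keep Notch signaling active and pass potassium through gap junctions. Atoh1 is the transcription factor (TF) that starts the HC fate, and Pou4f3 is a HC TF downstream of it that HCs need to survive.

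Members were found in 4 of the 5 induced libraries. Coch + Tmx P26 rep 1 held 12 of 801 barcodes (1.498%, 95% exact binomial interval 0.776 to 2.60%), rep 2 held 4 of 569 (0.703%, 0.192 to 1.79%), Coch + Tmx P33 rep 1 held 31 of 502 (6.18%) and rep 2 held 26 of 717 (3.63%). Coch + Tmx P26 rep 3 held 0 of 590, with an upper limit of 0.623% by the same interval. The uninduced libraries held 0 of 1382, 0 of 881 and 0 of 581, with upper limits of 0.267%, 0.418% and 0.633%. These intervals and limits cover counting error only. Over all kept barcodes Atoh1 stood at 12.3 CPM (its UMIs scaled to the total UMIs of the barcodes summed) in Coch + Tmx P26 rep 3, against 17.5 to 23.7 in the uninduced and 90.5 to 524 in the other induced libraries, so the library labelled Coch + Tmx P26 rep 3 was at the uninduced level of the induced gene. The labels do not say whether libraries came from separate animals. The p-values below measure how differences between classes vary from library to library, and that spread may be technical. No pair of libraries shared more than 3 barcodes.

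The gate separated members by a wide margin. Among induced barcodes with at least 5 Atoh1 and at most 2 Ocm UMIs, 74 had no Pou4f3 UMI, 1 had 1, 0 had 2 and 73 had 3 or more. Of the members, 1 had 5 or 6 Atoh1 UMIs, 72 had no Ocm UMI and 1 had 2. Just outside, 3 induced barcodes met the Atoh1 and Pou4f3 limits with 3 or more Ocm UMIs, and 1 such barcode lay in the uninduced Coch P12 rep 1. These values chose the members and are a description.

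**Figure D1:**
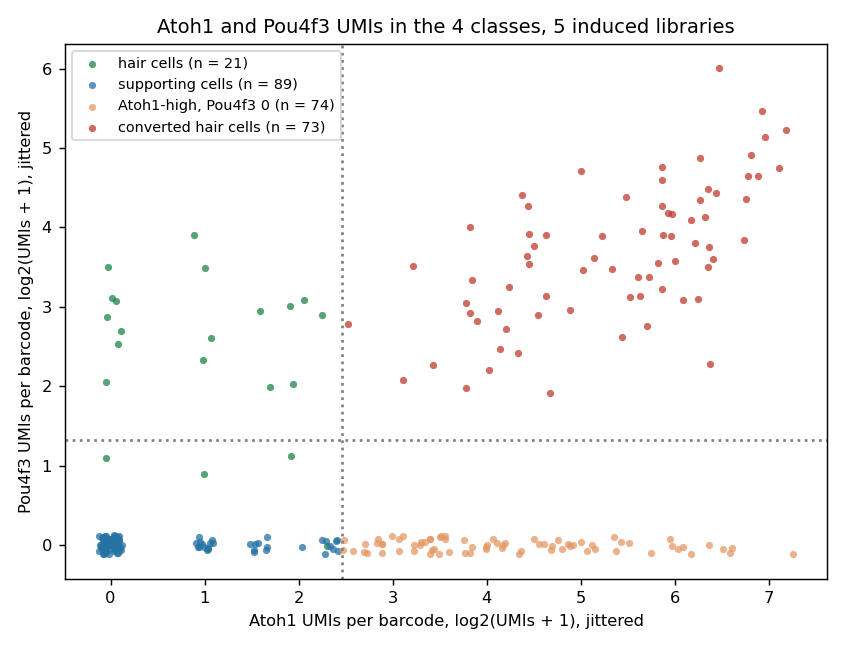
Atoh1 UMIs (x) against Pou4f3 UMIs (y) per barcode on jittered log2(UMIs + 1) axes in the 5 induced libraries, with 1 point per barcode, colors for the 4 classes and dotted lines at the gate. The 73 converted cells lie above both lines, and the 74 Atoh1-high barcodes without Pou4f3 lie along the bottom over a similar Atoh1 range.

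cHCs were set against SCs, HCs and the 74 Atoh1-high barcodes without Pou4f3. SCs were 89 barcodes of the induced libraries with Fgfr3, at least 2 of Sox2, Prox1, Lfng, S100a1 and Ceacam16, at most 4 Atoh1 UMIs and no Pou4f3 (6 to 43 per library). Of these, 43 came from Coch + Tmx P26 rep 3, which held no member and stood at the uninduced level of Atoh1. Its SC sum was part of the fit and of the SC ranges below. Atoh1 was detected in 30 of the 89 SC barcodes, against 32 of 424 macrophage barcodes of the induced libraries. The SC class was thus not free of the induced gene. HCs were 21 induced barcodes with at most 4 Atoh1 UMIs that carried Otof or Pou4f3 and either at least 10 Ocm UMIs (12, outer type) or at least 2 Slc17a8 UMIs (9, inner type). UMIs were summed per library and class, sums of at least 5 barcodes were compared with edgeR's quasi-likelihood test with the library as a block, and a gene was called at a Benjamini-Hochberg adjusted p under 0.05. Genes that gated either class of a comparison were left out of that comparison's test.

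Both reference classes held barcodes of mixed content. In the SC class 4 barcodes carried at least 10 UMIs over 8 neuronal genes, and the summed neuronal level was 1418 to 3373 CPM in the SCs of the 3 fitted libraries against 43.2 to 148 CPM in their cHCs. Every one of the 9 inner-type HC barcodes carried UMIs of the SC genes Sox9, Slc1a3 or Gjb6 (8 carried all 3), against 0 of the 12 outer-type barcodes and 22 of the 73 cHCs. The 6 SC barcodes of Coch + Tmx P26 rep 1 also held 1480 CPM of Grp, 344 CPM of Dll3 and 310 CPM of Lhfpl5. Total counts are therefore also given without the neuronal barcodes (against SCs) or with outer-type HCs alone (against HCs), and list counts where these differ. Median depth per barcode was 14000 UMIs in cHCs, 14020 in SCs and 7666 in HCs, and the median mitochondrial share was 12.1%, 5.02% and 10.9%. Within cHCs the mitochondrial median was 6.48% and 6.72% in the P26 libraries and 14.0% and 14.2% in the P33 libraries. The part of depth, mitochondrial share and mixed barcodes in any result below was not tested except where a value without them is given.

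The markers given for these cells that the gate did not use were looked at next. They were chosen with earlier results of these data known, so their presence describes the members and does not check the label. Ccer2 was detected in 73 of 73 members, Lhfpl5 in 73, Grp in 72, Rasd2 in 72 and Chrna9 in 70. Of the 74 Atoh1-high barcodes without Pou4f3, 62 carried Grp, 58 Rasd2, 46 Chrna9, 45 Lhfpl5 and 19 Ccer2. In 424 macrophage barcodes of the same libraries, which should lack these genes, 12 carried Ccer2, 10 Lhfpl5, 10 Grp, 6 Rasd2 and 5 Chrna9, at a median of 7283 UMIs per barcode. The HC proteins parvalbumin and unconventional myosin VI were present as transcripts in 73 (Pvalb) and 71 (Myo6) members. The genes that define mature OHCs and IHCs were nearly absent, with Slc26a5 in 2 members, Slc17a8 in 1 and Tmc1, a pore subunit of the mature transduction channel, in 3. SC genes were detected in part of the members, with Fgfr3 in 82.2%, Sox2 in 61.6% and Prox1 in 60.3%, against 2.36%, 2.59% and 3.30% of macrophages. Sox9 was found in 23.3% of members against 15.6% of macrophages, and Hes1 in 9.59% against 21.7%, a share at background.

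The starts of 4 of these marker genes are shown because Atoh1 binds E-box motifs and the windows differ in whether they hold the E-box CAGCTG. Each run is 300 bases of GRCm38.p6 from RefSeq, from 250 bases before to 50 after the annotated gene start, 5′ to 3′ on the plus strand, with CAGCTG in capitals.
Ccer2, chr7:28755924-28756223: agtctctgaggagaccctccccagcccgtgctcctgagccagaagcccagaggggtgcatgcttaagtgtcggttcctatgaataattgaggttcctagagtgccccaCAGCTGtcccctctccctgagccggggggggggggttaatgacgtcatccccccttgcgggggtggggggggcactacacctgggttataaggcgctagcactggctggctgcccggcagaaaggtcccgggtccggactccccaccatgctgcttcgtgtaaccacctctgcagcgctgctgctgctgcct
Chrna9, chr5:65966874-65967173: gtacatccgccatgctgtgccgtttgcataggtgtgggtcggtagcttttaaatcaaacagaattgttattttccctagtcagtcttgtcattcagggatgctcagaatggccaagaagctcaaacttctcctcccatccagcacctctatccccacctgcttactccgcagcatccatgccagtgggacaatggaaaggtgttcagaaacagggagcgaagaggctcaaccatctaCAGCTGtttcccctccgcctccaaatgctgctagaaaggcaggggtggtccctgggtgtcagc
Lhfpl5, chr17:28575469-28575768: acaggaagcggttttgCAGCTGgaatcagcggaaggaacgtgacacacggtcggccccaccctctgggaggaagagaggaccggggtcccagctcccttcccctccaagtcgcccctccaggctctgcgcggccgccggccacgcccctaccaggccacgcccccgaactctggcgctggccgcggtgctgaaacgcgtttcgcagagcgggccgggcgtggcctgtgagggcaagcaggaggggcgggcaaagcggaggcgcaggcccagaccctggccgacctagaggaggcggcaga
Rasd2, chr8:75213694-75213993: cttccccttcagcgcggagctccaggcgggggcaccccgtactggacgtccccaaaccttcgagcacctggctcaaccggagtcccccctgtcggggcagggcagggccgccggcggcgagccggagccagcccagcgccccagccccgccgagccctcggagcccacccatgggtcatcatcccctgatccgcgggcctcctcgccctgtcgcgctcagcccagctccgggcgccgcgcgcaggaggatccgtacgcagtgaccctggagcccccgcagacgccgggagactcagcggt
CAGCTG, which reads the same on both strands, occurred once in Ccer2, Chrna9 and Lhfpl5 and not in Rasd2. The E-box CAGATG, searched on both strands as CAGATG or CATCTG, occurred in none of the 4. Of 32851 RefSeq promoter windows of this length 16.3% held CAGCTG and 17.2% held CAGATG, and 21 of 27 marker and leading genes looked up had 33 windows in all, of which 9 held CAGCTG. Several of the 33 were overlapping windows of Gm13373, so their share cannot be set against that of all windows. The lookup did not take windows from every chromosome. A match is a description of these letters and not a binding site.

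Marker levels by library were as follows, with cHC values always in the order Coch + Tmx P26 rep 1, P26 rep 2, P33 rep 1 and P33 rep 2. Ccer2 stood at 12760, 6733, 5070 and 7034 CPM in cHCs, at most 14.8 CPM in any SC sum and at most 111 CPM in any HC sum. No cHC library overlapped either reference class. Lhfpl5, the tetraspan subunit that couples the tip link to the transduction channel, stood at 1038, 1332, 1163 and 1369 CPM in cHCs, 0 to 310 CPM in SCs and 241 to 2217 CPM in HCs. Rasd2, a Ras-related GTPase, stood at 944, 995, 915 and 791 CPM in cHCs, 8.66 to 59.1 CPM in SCs and 0 to 148 CPM in HCs. Chrna9, a subunit of the efferent acetylcholine receptor, stood at 872, 1230, 732 and 983 CPM in cHCs, 0 to 120 CPM in SCs and 14.2 to 1109 CPM in HCs. Lhfpl5 and Chrna9 in cHCs thus lay above all SC sums and overlapped HCs, with Chrna9 of P26 rep 2 above every HC sum, whereas Rasd2 lay above both classes. Grp, which encodes gastrin-releasing peptide, varied most, at 1362, 2693, 309 and 585 CPM in cHCs against 0 to 1480 CPM in SCs and 0 to 73.9 CPM in HCs. Its cHC range overlapped that of SCs through the SCs of Coch + Tmx P26 rep 1 and of P33 rep 1.

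**Figure D2:**
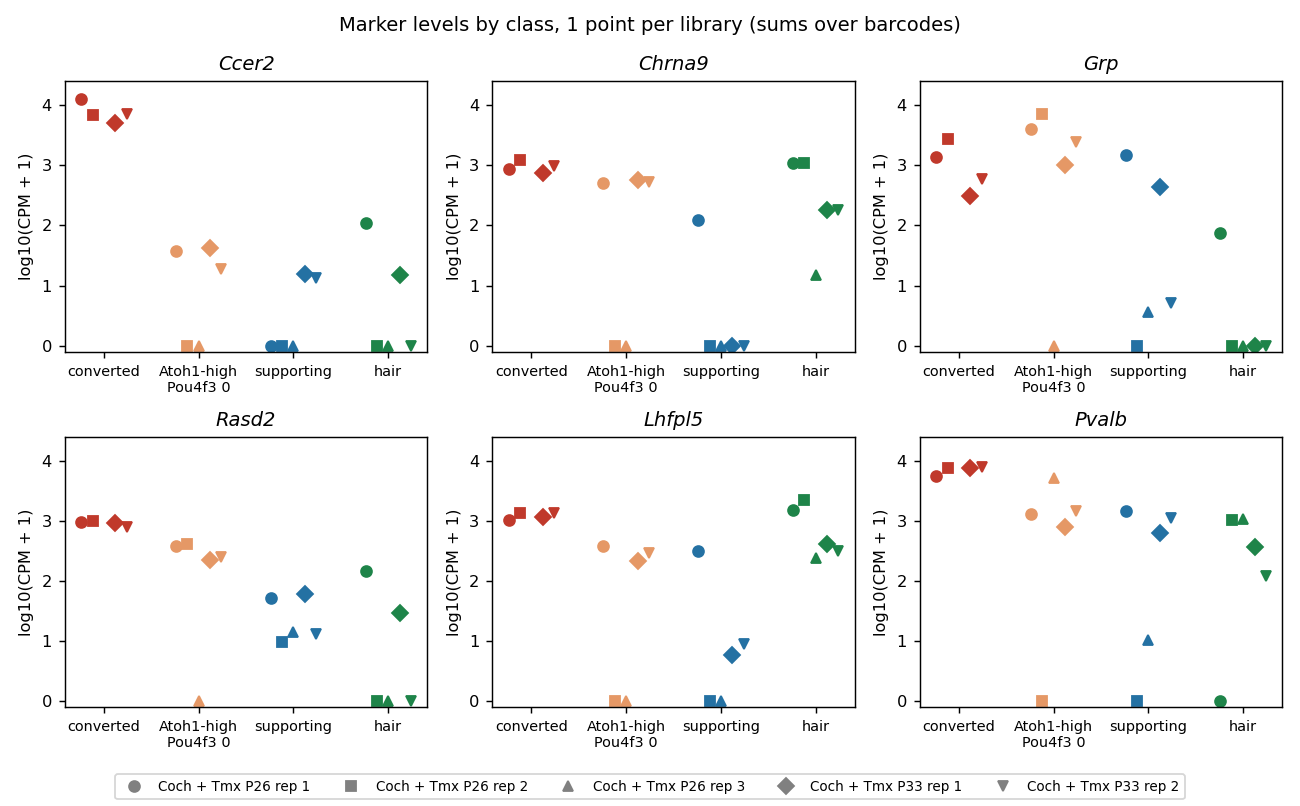
Levels of Ccer2, Chrna9, Grp, Rasd2, Lhfpl5 and Pvalb as log10(CPM + 1) in each class, with 1 point per induced library (sums over barcodes, shapes for libraries). Ccer2 in converted cells (5070 to 12760 CPM) lies far above every other class, whereas Chrna9 and Lhfpl5 overlap hair cells and Grp is higher in Atoh1-high barcodes.

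Against SCs of the same libraries, 776 of 6161 genes tested were higher in cHCs (12.6%) and 629 were lower (10.2%), over 3 libraries with both classes, and 1287 of the 1405 called genes had the same direction in all 3. Most tested genes of transduction, the bundle and cilia were higher, and many Notch, gap-junction and other SC genes were lower. Of the markers given, 4 of 5 tested were higher: Ccer2 (log2 fold change 9.28 ± 0.60, SE, adjusted p = 1.9e-11), Chrna9 (5.94 ± 0.74, adjusted p = 1.0e-06), Lhfpl5 (4.96 ± 0.70, adjusted p = 6.1e-06) and Rasd2 (4.69 ± 0.52, adjusted p = 2.0e-07). These markers were chosen with earlier results of these data known, so their calls are a description. Over all tested genes DESeq2 called 269 higher and 372 lower. A gene could pass the count filter through 1 class alone, so counts over tested genes describe those and not whole lists (25 TFs, 22 Notch, 19 mechanotransduction, 25 bundle and 35 SC genes were listed). The count of calls was 505 without Coch + Tmx P33 rep 2, 884 without P33 rep 1 and 2168 without P26 rep 1, so it depended on each of these libraries. Without Coch + Tmx P26 rep 3, which gave SCs alone to the fit, the count was 1140. With barcodes under 10% mitochondrial UMIs alone, 252 genes were higher and 260 lower of 4051. Without the 4 neuronal barcodes 795 were higher (13.9%) and 578 lower (10.1%) of 5702, and of the 1405 genes 1070 kept their call and direction (642 of 776 higher, 428 of 629 lower).

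TFs of the HC lineage were the first such group, with 9 of 17 tested higher and 1 lower (median log2 fold change 1.79, against 0.10 over all genes). Barhl1, which HCs need for survival, stood at 209, 307, 398 and 321 CPM in cHCs and 0 to 17.2 CPM in SCs. Lhx3, a LIM-homeodomain TF of HCs, stood at 267, 146, 346 and 241 CPM in cHCs and at 0 in all 5 SC sums, at least 49.6-fold higher (adjusted p = 1.2e-07). No cHC library overlapped SCs for either gene. Gfi1, a repressor that HCs need, stood at 86.5, 58.6, 54.9 and 21.1 CPM against 0 in every SC sum (at least 7.67-fold higher, adjusted p = 0.0018). Hes6, an antagonist of Hes repressors, was higher by 3.17 ± 0.43, and Neurod6, Insm1, Nhlh1, Pax2 and Nfia were also called. The call of Pax2 was absent with DESeq2 (adjusted p = 0.33), as was that of Nhlh1 (0.37). Gata3, a TF of both HCs and SCs, was lower (-1.48 ± 0.45, adjusted p = 0.018).

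Of 15 mechanotransduction genes tested 12 were higher and none lower, with a median log2 fold change of 5.38 (13 higher without the neuronal barcodes). Cib2, an auxiliary subunit of the transduction channel, stood at 2739, 3337, 3233 and 2952 CPM in cHCs and 34.6 to 361 CPM in SCs (4.05 ± 0.48, adjusted p = 6.1e-07). Tomt, which is required to bring the channel to the bundle, stood at 57.7, 176, 203 and 183 CPM against 0 in every SC sum (at least 29.7-fold higher). Both genes separated cHCs from SCs in every library. The tip-link cadherins were higher, Cdh23 at least 29.3-fold against SC sums with 0 UMIs and Pcdh15 by 3.20 ± 0.54, and genes including Myo7a, Tmie, Loxhd1, Adgrv1, Pdzd7 and Cib3 were called as well. Tmc1 had 3 UMIs in all, in the cHCs of Coch + Tmx P33 rep 1 (6.10 CPM), and was at 0 in the other 3 cHC sums, against 73.9 to 693 CPM in HCs.

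Among hair-bundle genes 13 of 22 were higher and 1 was lower (median 3.55), and without the neuronal barcodes 12 were higher and 2 lower. Myo15, the motor that carries actin regulators to stereocilia tips, stood at 209, 132, 211 and 260 CPM in cHCs and 0 to 8.66 CPM in SCs (6.61 ± 0.76, adjusted p = 3.7e-07). The actin cross-linker Espn was higher by 4.67 ± 0.52 and its relative Espnl at least 28.9-fold, and Myo6, Grxcr1, Xirp2, Strc, Ptprq, Triobp and Fscn2 were called in the same direction. Fscn1 went the other way, with 1 UMI in the cHCs of the 3 fitted libraries against 46 in SCs (ratio of summed CPM 0.0104, 95% counting interval 0.000258 to 0.0611). Both fascins bundle actin, and Fscn2 is the form known from HCs. All 5 kinocilium genes tested of 23 listed were higher (median 4.35), among them the ciliary TF Foxj1 (3.68 ± 0.85), the dynein intermediate chain Dnaic2 (at least 17.4-fold) and Cfap126 (at least 25.6-fold).

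Synaptic and channel genes were mixed. Of 6 efferent-synapse genes 4 were higher and none lower, including Chrna10, the partner of Chrna9, at 57.7, 58.6, 209 and 208 CPM in cHCs and 0 in every SC sum (at least 32.0-fold higher). The other 2 were Chrna1 and Chrng, subunits of the muscle-type receptor. Among 13 ribbon-synapse genes 3 were higher (Otof, Cabp2, Cacna1d) and 3 lower (Cabp1, Nsf, Snap25), and without the neuronal barcodes 5 were higher and none lower of 10. Otof, the calcium sensor of HC exocytosis, stood at 57.7, 43.9, 71.2 and 133 CPM in cHCs and 0 in every SC sum (at least 15.99-fold higher, adjusted p = 1.2e-05). Of 9 ion-channel genes 4 were higher, among them the potassium channel gene Kcna10 (2 UMIs in SCs against 138 in cHCs), and 3 were lower (Hcn2, P2rx2, Scn8a), of which P2rx2 alone kept its call without the neuronal barcodes. Of 12 calcium buffers and pumps 4 were higher and 1 lower (Calb2). Pvalb stood at 5464, 7436, 7579 and 7736 CPM in cHCs against 0 to 1446 CPM in SCs (2.85 ± 0.49, adjusted p = 8.3e-05). Without the neuronal barcodes SCs held 4 UMIs of Pvalb in the fitted libraries against 7791 in cHCs (9.76 ± 0.68), and 7 calcium genes were higher and none lower of 12.

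**Figure D3:**
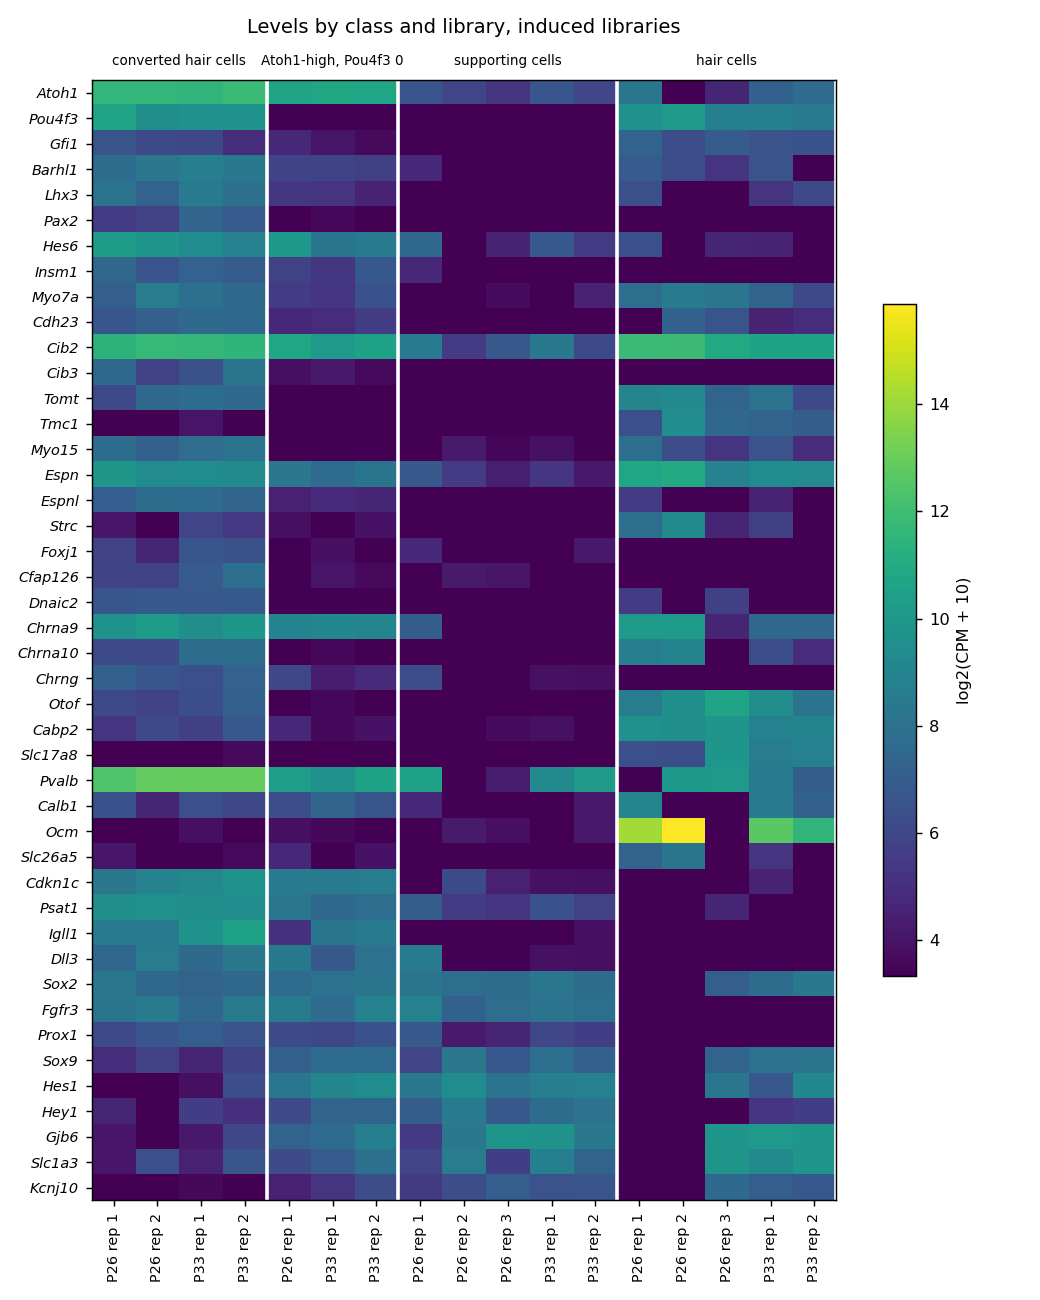
Levels of selected genes as log2(CPM + 10) (color) in each class and induced library (columns), with sums of under 5 barcodes included for converted, supporting and hair cells. Converted cells carry Tomt, Myo15 and Chrna10 with almost no Slc26a5 (2 of 73 members) or Slc17a8 (1 of 73), and their low Ocm was set by the gate. The columns of hair cells with Gjb6 and Slc1a3 are those that hold inner-type barcodes.

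Among the genes lower in cHCs were many of the Notch and SC lists. Of 16 Notch-pathway genes 8 were lower and 2 higher (median -2.18). Hes1, a Notch effector that represses Atoh1, stood at 0, 0, 4.07 and 70.2 CPM in cHCs and 264 to 684 CPM in SCs (-4.18 ± 0.63, adjusted p = 1.5e-05). Hes1 was below every SC sum in all 4 cHC libraries. Hes5, Hey1, Hey2, Heyl, Nrarp, Notch1 and Jag1 were lower, with log2 fold changes from -2.98 (Hey2) to -1.98 (Heyl), while the ligands Dll1 (2.64 ± 0.95) and Dll3 (2.54 ± 0.73) were higher. Dll3 stood below the SCs in Coch + Tmx P26 rep 1 (173 against 344 CPM), the call of Dll1 was lost without the neuronal barcodes (adjusted p = 0.091), and DESeq2 called neither (0.50 for Dll1 and 0.21 for Dll3). Of 26 SC genes 16 were lower and none higher (median -1.99; 20 lower without the neuronal barcodes), among them S100b (-3.69 ± 0.51), Sox9 (-2.26 ± 0.57) and Slc1a3 (-2.54 ± 0.68). Of 8 gap-junction and potassium-transport genes 6 were lower, and 4 without the neuronal barcodes, including the connexin genes Gjb2 (-2.83 ± 0.63) and Gjb6 (-4.00 ± 0.72) and the potassium channel gene Kcnj10 (1 UMI in cHCs against 41 in SCs). Sox2, which was part of the SC gate, stood at 296, 176, 148 and 173 CPM in cHCs and 206 to 295 CPM in SCs.

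By size alone, the genes highest in cHCs against SCs were Rbm24, Gm11837, Ccer2, Ly6h, Lhx3, Fer1l6, Igll1, Gm13373, Cib3, Chrna10, Cdh23 and Tmem91. Rbm24, an RNA-binding splicing regulator, stood at 454, 176, 315 and 286 CPM in cHCs against 0 in every SC sum (at least 54.4-fold higher, adjusted p = 1.8e-07). Igll1, a component of the pre-B-cell receptor, stood at 360, 351, 864 and 1419 CPM in cHCs and had 1 UMI in all SCs of the fitted libraries. It was found in 67 of 73 members and 3 of 424 macrophages, and DESeq2 gave adjusted p = 0.15. The calls of Gm11837, Ly6h, Fer1l6, Gm13373 and Cib3 were also lost with DESeq2 (adjusted p from 0.21 for Ly6h to 0.24 for Fer1l6). Of the 12 genes lowest in cHCs, 11 (among them Spock3, Meg3, Kcna1, Nefl and Sncb) are no longer in the top 12 without the neuronal barcodes. The 12 lowest then were Mmp15, Fscn1, Kcnj10, Tnnt2, Ttyh1, Acot1, Mgst1, Rgcc, Gpx8, Lum, Trim50 and Epyc. In the fit with all SC barcodes the matrix genes Epyc (-4.82 ± 0.50) and Lum (-5.06 ± 0.56) were lower, and the metalloproteinase gene Mmp15 had 0 UMIs in cHCs against 35 in SCs (at least 24.3-fold lower). All 5 neuronal genes tested were lower with those barcodes, and Nefm, Snap25 and Calb2 had the opposite sign without them, at 4.82, 3.10 and 2.38.

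Cell-cycle, stress and respiratory genes hardly separated the classes. Of 7 cell-cycle genes 1 was higher (2 without the neuronal barcodes), the inhibitor Cdkn1c (p57) at 303, 468, 588 and 836 CPM in cHCs and 0 to 60.6 CPM in SCs. Of 15 immediate early and stress genes Btg2 and Egr1 were higher, and of 87 nuclear respiratory-chain genes 3 were higher and 1 lower. No call was made among 4 macrophage and 4 erythroid genes tested (1 macrophage gene was higher without the neuronal barcodes). Of 3 glial genes Cnp was higher, and of 4 stromal genes Lum was lower. No endothelial gene passed the filter. The macrophage list of 9 genes summed to 72.1 to 360 CPM in cHCs and 54.0 to 407 CPM in SCs.

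**Figure D4:**
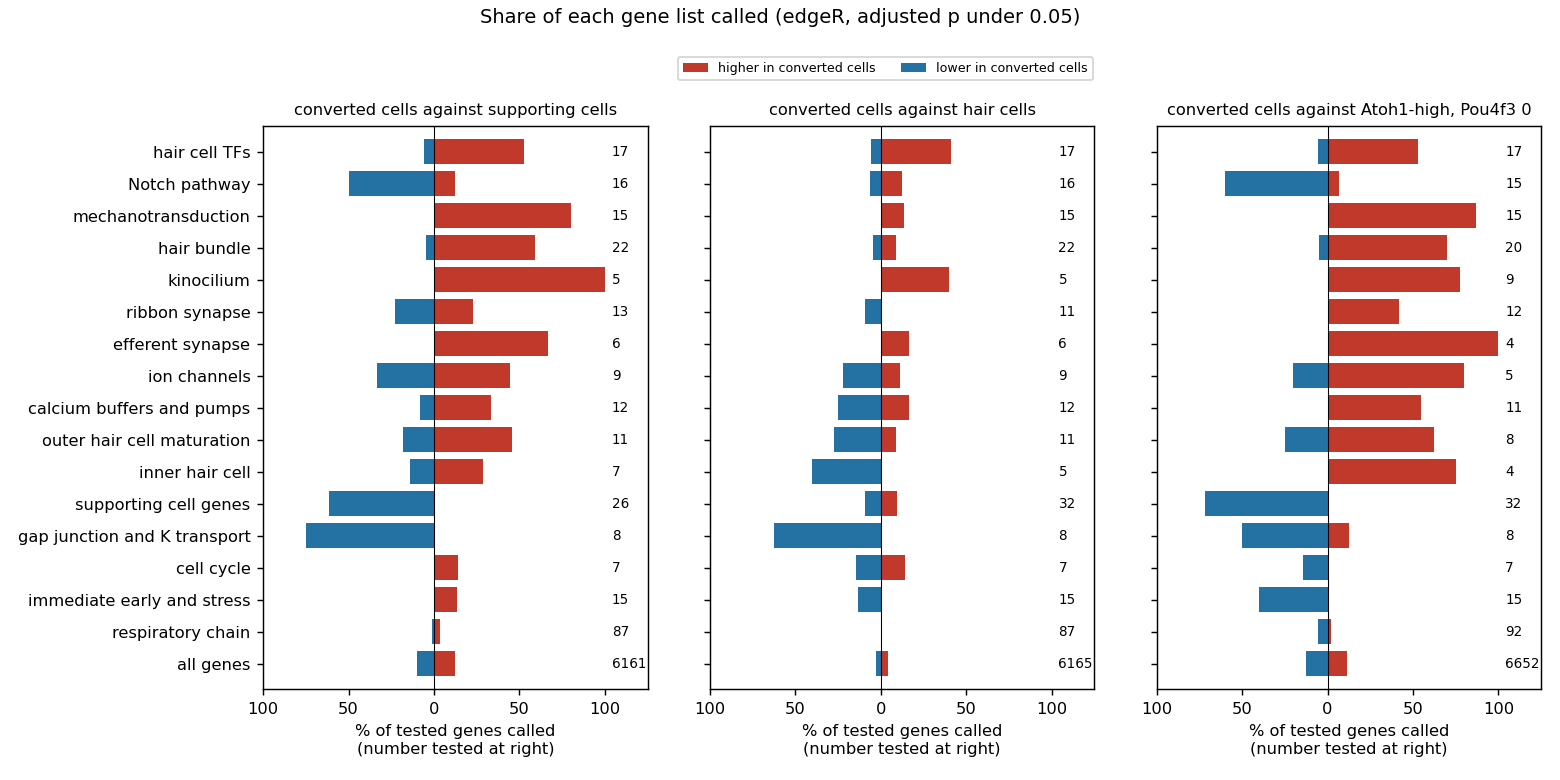
Percent of tested genes called in each list (x, higher to the right and lower to the left, number tested at the right edge) for converted cells against supporting cells, hair cells and Atoh1-high barcodes. Mechanotransduction, hair bundle and kinocilium lists lie to the right in the first and last panels (12 of 15, 13 of 22 and 5 of 5 in the first), and most of their tested genes are not called against hair cells.

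How much of the difference between HCs and SCs without induction the cHCs showed was read from libraries that contributed no cHC. In the uninduced libraries 732 of 9612 genes were higher in HCs than SCs (7.62%) and 821 were lower (8.54%), or 264 and 195 with DESeq2. The 2 libraries with both classes were Coch P12 rep 1 and rep 2. This difference was thus measured at P12, whereas the cHCs came from P26 and P33. The part of age in the shares below was not tested. Of the 732, 623 were tested in cHCs, where 212 were higher than in SCs (34.0%, against the background of 12.6%) and 21 lower. Of the 821, 604 were tested, and 238 were lower than in SCs (39.4%, against 10.2%) and 31 higher. Those 212 genes were 27.3% of all genes higher in cHCs and the 238 were 37.8% of all genes lower. Without the neuronal barcodes the shares were 39.8% and 37.5%. Most genes of both lists (390 and 335) passed the test in neither direction.

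**Figure D5:**
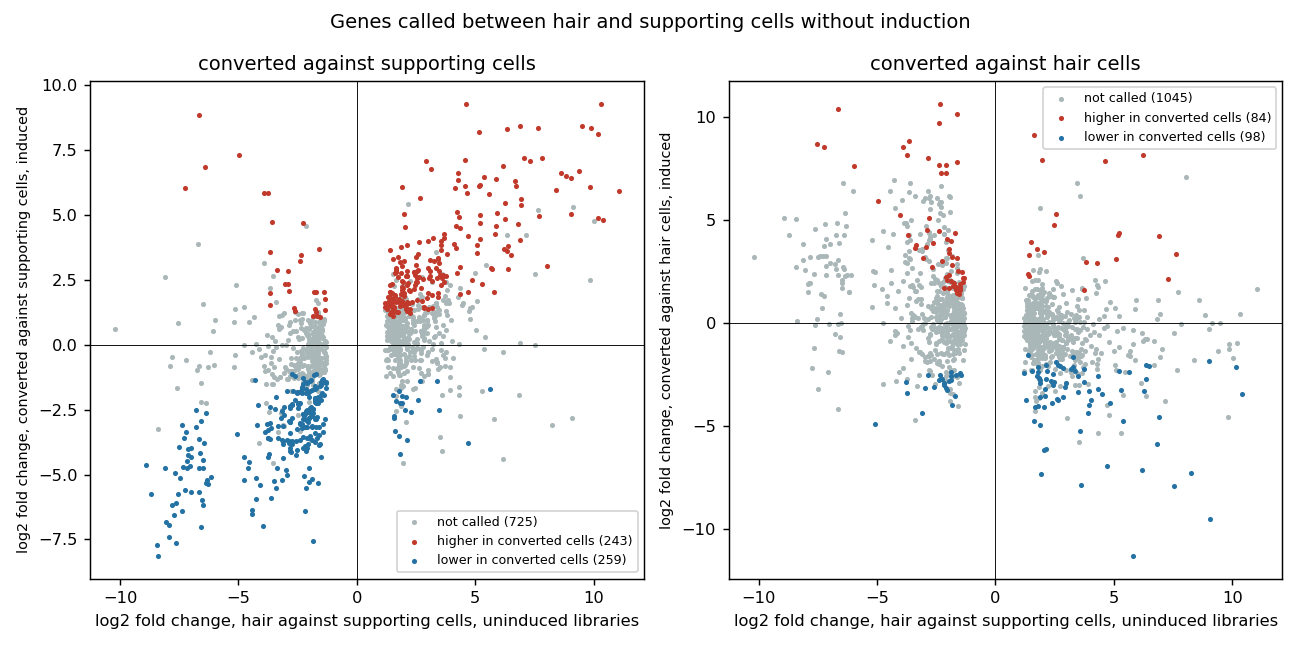
Log2 fold changes of genes called between hair and supporting cells in uninduced libraries (x) against their log2 fold changes in converted cells against supporting cells (left, y) and against hair cells (right, y), with 1 point per gene and colors for calls. On the left 212 hair-cell genes lie high and 238 supporting-cell genes lie low in converted cells, and most points on the right are not called.

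Against HCs of the same libraries, 279 of 6165 genes tested were higher in cHCs (4.53%) and 180 lower (2.92%), with both classes in 2 libraries, Coch + Tmx P26 rep 1 and P33 rep 1. Among the higher genes were 7 of 17 HC-lineage TFs, and among the lower genes were 5 of 8 gap-junction genes and 3 of 11 OHC maturation genes. The count of calls was 765 without P26 rep 1 and 189 without P33 rep 1, in each case with HCs in 1 library that was assumed to vary like the other sums. With outer-type HCs alone, taken from 1 barcode upward in 4 libraries, 682 genes were higher (12.8%) and 163 lower (3.07%) of 5309, and the median log2 fold change over all genes was 0.64 against 0.21. In that comparison 270 of the 279 genes kept the call as higher, 74 of the 180 kept the call as lower, and 55 of the 441 calls that could be tested changed sign. Among these, Gjb2, Gjb6, Kcnj10, Slc1a3 and Ceacam16 were called lower against all HCs and had the opposite sign, with no call, against outer-type HCs.

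Most transduction and bundle genes did not pass the test against HCs, which does not show equal levels. Of 15 mechanotransduction genes 2 were higher, Cdh23 and Cib3, and none lower (median 0.44). Of 22 bundle genes 2 were higher, Espnl and Grxcr1, and 1 lower, Cdc14a. Over all genes 4.53% were higher and 2.92% lower. Against outer-type HCs 2 of 13 mechanotransduction genes were lower, Tmc1 (-6.12) and Tomt (-1.31), and 2 were higher. Of 22 bundle genes 4 were lower, Fscn2, Grxcr2, Lcp1 and Strc, and 3 were higher. The shares over all genes there were 3.07% lower and 12.8% higher. Strc encodes a protein that links OHC bundles to the tectorial membrane. Tmc1 stood at 73.9, 693, 266 and 873 CPM in the outer-type sums and at 0, 0, 6.10 and 0 in cHCs. Lhfpl5 (0.63, adjusted p = 0.30) and Chrna9 (0.73, adjusted p = 0.24) did not pass the test against outer-type HCs.

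Several OHC maturation genes were lower. Of 11 tested 3 were lower, Aqp11, Dnm3 and Sri, and 1 was higher (median -1.26), and against outer-type HCs 7 of 12 were lower (median -2.88). Over all genes 2.92% were lower against HCs and 3.07% against outer-type HCs. SCs carried Aqp11 in 55, Sri in 56 and Dnm3 in 4 of 89 barcodes, against 21, 31 and 21 of 73 members. Aqp11 was also called lower in cHCs than in SCs. Sri, the calcium-binding protein sorcin, stood at 36.0, 102, 34.6 and 37.4 CPM in cHCs and 70.9 to 1662 CPM in HCs (-3.77 ± 0.53, adjusted p = 5.5e-05). Aqp11, a water channel of internal membranes, stood at 7.21, 87.8, 34.6 and 28.1 CPM in cHCs and 693 to 1455 CPM in outer-type HCs (-4.12 ± 0.66 in the fit with all HCs). The outer-type levels lay above every cHC value for both genes. Ikzf2, a TF that maintains OHC identity, was lower against outer-type HCs (-3.32), as were Lmod3 and Kcnn2, the channel that acts with Chrna9 at efferent synapses. Cabp2, a calcium sensor of the ribbon synapse, stood at 28.8, 58.6, 42.7 and 101 CPM in cHCs and 446 to 908 CPM in HCs (-3.44 ± 0.57, adjusted p = 0.00027).

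Some HC transcripts were found in no or almost no cHC. AI593442 was at 0 in all 4 cHC sums and at 391 to 1182 CPM in the 5 HC sums (at least 128-fold lower, adjusted p = 4.4e-07). Chst2, a sulfotransferase gene, stood at 0, 0, 0 and 7.02 CPM in cHCs and 296 to 1447 CPM in HCs (at least 130-fold lower in the fitted libraries, adjusted p = 1.9e-06). Both genes kept their call against outer-type HCs. By size the other genes lowest in cHCs were Kcnj13, Pknox2, Fign, Car7, Tuba8, Ceacam16, Wscd2, Myom1, Lgalsl and Trim16. Among these Ceacam16 is part of the SC gate and had 1 UMI in outer-type HCs. DESeq2 gave AI593442 an adjusted p of 0.20 and Car7 one of 0.11. It gave none for Kcnj13, Pknox2, Fign, Tuba8, Myom1, Lgalsl and Trim16, which had 7 to 15 UMIs in the HCs of the fitted libraries.

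On the higher side, the 12 leading genes against HCs were Psat1, Igll1, Dlk2, Nrep, Ifitm2, Gng8, Rab36, Dll3, Mycl, Trit1, Bex1 and Syt13, all with 0 UMIs in the HCs of the fitted libraries. These genes thus passed the count filter through the other classes of the fit. DESeq2 did not call Igll1 (adjusted p = 0.45), Gng8 (0.49) or Dll3 (0.066). Psat1, an enzyme of serine synthesis, stood at 742, 776, 762 and 700 CPM in cHCs, 27.0 to 120 CPM in SCs and 0 to 14.2 CPM in HCs (at least 24.96-fold higher than HCs, adjusted p = 1.4e-05). Its cHC levels were within a narrow range and above both reference classes in every library. Ccer2 was higher by 7.87 ± 0.71 (adjusted p = 5.7e-08), Rasd2 by 4.34 ± 0.69 and Pvalb by 5.29 ± 0.70 (adjusted p = 2.6e-05). Grp had a ratio of summed CPM of 26.7 against HCs with 2 UMIs (95% counting interval 7.34 to 221).

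TFs and SC genes added to the higher side. Of 17 HC-lineage TFs 7 were higher, Barhl1 (2.14 ± 0.66), Hes6, Insm1, Lhx3 (3.24 ± 0.73), Neurod6, Nfia and Pax2, and Lbh was lower (-4.76 ± 0.61). Neurod6 stood at 86.5, 102, 173 and 220 CPM in cHCs and at 0 in all 5 HC sums. Of 32 SC genes 3 were higher (Cryab, Fgfr3, Prox1) and 3 lower (Ceacam16, Rorb, Slc1a3), and against outer-type HCs 10 were higher and 1, Rorb, lower of 31. Fgfr3, whose promoter drives the Cre and which was part of the SC gate, stood at 281, 351, 181 and 367 CPM in cHCs, 139 to 448 CPM in SCs and 0 in every HC sum (at least 6.68-fold higher than HCs). The cHC range of Fgfr3 thus lay within that of SCs. Cdkn1c stood at 0 or 13.9 CPM in HCs. Kinocilium genes Cfap126 and Tekt1 were higher (2 of 5), with 4 of 5 higher against outer-type HCs. Notch genes Dll3 and Mfng were higher and Heyl lower of 16, and of 6 efferent-synapse genes Chrng alone was higher. No respiratory-chain gene of 87 was called. Against outer-type HCs 8 TFs were higher and 3 lower of 16, 3 calcium genes were higher and 3 lower of 11, none of 8 gap-junction genes was called, 7 immediate early and stress genes were higher of 14, and 2 respiratory-chain genes were higher and 2 lower of 88. Over all genes 4.53% were higher and 2.92% lower against HCs, and 12.8% were higher and 3.07% lower against outer-type HCs.

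The genes that separate HCs from SCs without induction (in the main fit a difference measured at P12) divided in the same libraries as follows. Of the 623 HC genes tested 75 were lower in cHCs than in HCs (12.04%, against the background of 2.92%) and 21 higher, and the 75 made up 41.7% of all genes lower in cHCs. Of the 604 SC genes tested 63 were higher (10.4%, against 4.53%) and 23 lower. With outer-type HCs in both comparisons 132 of 566 HC genes were lower (23.3%), which was 81.0% of all lower genes, and 217 of 702 SC genes were higher (30.9%), against 3.07% and 12.8% over all genes in that comparison.

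Members were last compared with the 74 Atoh1-high barcodes without Pou4f3, a comparison added after the gate counts were seen. By Atoh1 these barcodes stood at 1587, 1811 and 1671 CPM in Coch + Tmx P26 rep 1, P33 rep 1 and P33 rep 2, against 3186, 3068 and 3757 CPM in the cHCs of those libraries. Of 6652 genes tested 776 were higher in cHCs (11.7%) and 841 lower (12.6%), over 3 libraries with both classes. The median mitochondrial share was 6.05%, 6.71% and 6.71% in the Atoh1-high barcodes against 6.48%, 14.0% and 14.2% in the cHCs of these libraries. The count of calls was 722 without P33 rep 2, 769 without P33 rep 1, 1839 without P26 rep 1 and 301 with barcodes under 10% mitochondrial UMIs alone. The Atoh1-high barcodes of P33 rep 1 held 2854 CPM over the macrophage list and 760 CPM over the stromal list, against 360 and 42.7 CPM in its cHCs. Of the 74 Atoh1-high barcodes, 5 carried at least 10 UMIs over the neuronal genes, 4 of them in P33 rep 1, against 1 of the 73 cHCs. This comparison was not repeated without them, so their part in its results was not tested. The uninduced libraries held 10 barcodes that met the same Atoh1-high rule. The class was thus not confined to induced libraries.

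Ccer2 separated these classes by most among the markers, at 37.4, 41.2 and 18.1 CPM in the Atoh1-high barcodes (7.75 ± 0.30, adjusted p = 2.1e-07). Chrna9 differed by much less, at 503, 571 and 529 CPM (0.57 ± 0.19, adjusted p = 0.047 in edgeR and 0.14 in DESeq2). Lhfpl5 (1.96 ± 0.24) and Rasd2 (1.58 ± 0.21) were higher in cHCs. Grp went the other way, at 3943, 1022 and 2472 CPM in the Atoh1-high barcodes and 1362, 309 and 585 CPM in cHCs (-1.89 ± 0.17, adjusted p = 6.2e-05), and cHCs were lower in all 3 libraries.

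Of 15 mechanotransduction genes 13 were higher in cHCs and none lower (median 3.13), of 20 bundle genes 14 and 1 (median 2.30), and of 9 kinocilium genes 7 and none (median 4.52). A gene could pass the count filter through cHCs alone, as did Dnaic2, found in 0 of the 74 Atoh1-high barcodes. These counts thus describe the tested genes and not whole lists (23 kinocilium genes were listed). Over all genes 11.7% were higher. Myo15 and Tomt had no UMI in the fitted Atoh1-high barcodes, with levels at least 85.5-fold and 65.2-fold higher in cHCs. Cib2 was already at 1716, 1051 and 1420 CPM in the Atoh1-high barcodes, and differed by 1.01 ± 0.20. All 4 efferent genes tested were higher, among them Chrna10 with 1 UMI in the Atoh1-high barcodes. Otof and Pax2 also had 1 UMI there, against 100 and 130 in cHCs. Of the TFs 9 of 17 were higher, led by Pax2, Lhx3 (3.58 ± 0.30) and Nhlh1, and Gata3 was lower.

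Of 15 Notch genes 9 were lower in cHCs and 1, Jag2, higher (median -2.24), of 32 SC genes 23 were lower and none higher (median -1.91), and of 15 immediate early and stress genes 6 were lower. Hes1 stood at 291, 532 and 671 CPM in the Atoh1-high barcodes and 0, 4.07 and 70.2 CPM in cHCs (-4.55 ± 0.52, adjusted p = 0.00019). Jun (-2.05 ± 0.33) and the phosphatase gene Dusp1 (-2.35 ± 0.31) were among the 6. By size the lowest genes in cHCs included Apoc3 and Apoa4, which encode apolipoproteins, Tectb, which encodes a tectorial-membrane protein, Fscn1 and Wfdc3. Apoc3 stood at 129, 22.7 and 1837 CPM in the Atoh1-high barcodes, so its level there differed widely between libraries, and at 0, 0 and 4.68 CPM in the cHCs of those libraries. Wfdc3 stood at 2522, 57.7 and 907 CPM in the Atoh1-high barcodes and 36.0, 2.03 and 2.34 CPM in cHCs.

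Between ages no test was made, with 2 libraries holding members at each age. Grp stood at 1362 and 2693 CPM at P26 and 309 and 585 CPM at P33, Igll1 at 360 and 351 CPM against 864 and 1419 CPM, and Chrna10 at 57.7 and 58.6 CPM against 209 and 208 CPM. For these 3 genes, chosen after their values were seen, the libraries of the ages did not overlap, and the P33 members also had the higher mitochondrial share.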

How the data were processed

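Mouse organs of Corti were dissociated and single cells captured with 10x Chromium 3′ v2 kits. Per the labels, Cell Ranger and mm10 were named by the submitters' processing notes, with versions not given in the sources used here. The authors deposited, for each of 8 libraries, a matrix of UMI counts per gene and barcode, which were used as deposited (3972800 to 13423524 UMIs per library; 502 to 1382 barcodes kept).

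Barcodes with under 500 genes or 25% or more mitochondrial UMIs were left out. No doublets were removed in the main comparison. Scrublet (scanpy 1.11.5) marked 41 barcodes, none of them a member, and leaving them out was an alternative. The counts of a class were added up within each library, and sums of at least 5 barcodes were fitted with edgeR 4.0.16 (R 4.3.3; filterByExpr, TMM, quasi-likelihood test) with the library as a block, since classes of one library share its animals and preparation. The fit held cHC, SC and HC sums of induced libraries, and separate fits held the uninduced classes and the Atoh1-high barcodes. DESeq2 1.42.0, other gates, filters and thinning to 2000 UMIs were alternatives, and code was tested on simulated data. Where a class had no UMI, a fold is a lower bound against a floor of 3 counts over the fitted libraries holding both classes, and with 1 to 3 UMIs the ratio has a 95% counting interval. CPM divides a sum by its total UMIs, and rows of all 27998 genes were counted. Named genes are the 12 largest called changes per direction with 1 sign in every fitted library, plus markers and listed genes, of which some are not reported here. The members, gene lists and tests were chosen with earlier results of these data known, and the SC and HC gates use markers named in the same study. The Atoh1-high comparison, sums of at least 3 barcodes, outer-type HCs from 1 barcode and SCs without neuronal barcodes were added after values were seen.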

Additional observations from a re-analysis of the deposited data

Results flagged for a closer look

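In Dll3, cHCs minus SCs gave -171 CPM in Coch + Tmx P26 rep 1 and a positive difference in both P33 libraries, so the ages moved in opposite directions. In Cacna1d the same difference was -5.59 CPM in Coch + Tmx P26 rep 1 and positive at P33. Neither difference between ages was tested, and the P26 value rests on 6 SC barcodes of 1 library.

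The 4 members of Coch + Tmx P26 rep 2, too few for the main comparisons, held 6733 CPM of Ccer2, against 0 in the SCs and HCs of that library. No labelled group had 4 or more libraries, so no library was tested for standing apart within its group.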

How the results depend on the processing

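Of 4268 values that 255 fold changes of named genes took under the alternatives, 3878 kept direction and call, 377 kept direction without the call and 13 changed sign. Those 13 were Nefm (4.82), Snap25 (3.10) and Calb2 (2.38) against SCs without neuronal barcodes, and against HCs Gjb6 (2.40), Kcnj10 (0.12) and Slc1a3 (3.95) with outer-type HCs of at least 5 barcodes, Ceacam16 (0.65), Gjb2 (1.62), Gjb6 (4.64), Kcnj10 (0.90) and Slc1a3 (5.84) with outer-type HCs from 1 barcode, and Gjb6 (3.56) and Slc1a3 (4.85) without Coch + Tmx P33 rep 1 (lowest values over the libraries left out -5.96 and -4.80). Counts of called genes against SCs (1405), against HCs (459), between uninduced HCs and SCs (1553) and against Atoh1-high barcodes (1617) became 641, 197, 459 and 759 with DESeq2, and 209, 87, 419 and 242 with thinning to 2000 UMIs. With under 10% mitochondrial UMIs the counts against SCs and Atoh1-high barcodes were 512 and 301, and with at least 10 barcodes per sum the count against SCs was 2143. Against HCs, the count was 238 with only these classes in the fit, 116 with outer-type HCs of at least 5 barcodes and 845 from 1 barcode. Without the replicate block, where the block is the library itself and not a replicate number, counts were 1202, 161, 876 and 934, and genes called against HCs and between uninduced classes moved most. Leaving out 1 library gave 505 to 2168 against SCs, 189 to 765 against HCs, 722 to 1839 against Atoh1-high barcodes and 1627 between uninduced classes. Replicate numbers pair no libraries across groups, since every comparison was made within libraries. The comparisons against HCs and between uninduced classes could not be run with at least 10 barcodes per sum or under 10% mitochondrial UMIs, nor the latter without either P12 library. Other alternatives moved each count by less than 1.5 times. Values for induced HCs rest on 21 barcodes. The cause of the other moves was not tested.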
